A study of Caenorhabditis elegans with 18 samples.

Results

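The comparison described here sets unstressed worms of the pqm-1 mutant strain RB711, genotype pqm-1(ok485), against unstressed worms of the wild-type strain N2 Bristol. It uses 4 of the 18 RNA-seq samples of the series: the 2 libraries labelled pqm-1 at 20 °C, replicates 2 and 3, against the 2 libraries labelled N2 at 20 °C, replicates 2 and 3, chosen by the names of their columns. All were whole C. elegans on day 1 of adulthood, grown from synchronised first-stage larvae on agar seeded with E. coli OP50-1, so each value is an average over all tissues and over the germline. The series also holds pqm-1 and N2 worms given 1 h at 35 °C followed by 2 h of recovery at 20 °C, and daf-16(mu86) worms of strain CF1038 in both conditions; these libraries entered the shared fit, and the heated pqm-1 and N2 pair serves below as the same genotype contrast in other libraries. The labels give 1 strain per genotype, so the ok485 allele and any other difference between RB711 and N2 cannot be told apart. Nothing in the labels says whether replicates are separate cultures, so p-values measure the spread between these samples, which may be technical. The libraries labelled replicate 1 are left out because 1 column of the table carries a sample's name but holds transcript lengths, so the names may stand 1 column off, and heat shock transcripts in the replicate 1 libraries go against their temperature labels. Libraries named replicate 2 or 3 belong to the same group under either reading of the names.

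PQM-1 is a C2H2 zinc-finger transcription factor found mainly in intestinal nuclei. It is known for acting opposite to DAF-16, the FOXO factor that insulin signalling keeps out of the nucleus: DAF-16 targets that rise when insulin signalling is low are called class I genes, and growth and metabolic genes that fall are called class II. PQM-1 binds a DNA element common in class II promoters. Many dod genes (downstream of DAF-16), lysozymes, C-type lectins and aspartyl proteases are made in the same intestinal cells and respond to bacteria.

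Gene totals were 21598593 and 21708992 estimated counts in the pqm-1 libraries and 20709972 and 23980347 in the N2 libraries. Values below are CPM, counts scaled to library size with TMM factors, and log2 fold changes are pqm-1 over N2 from edgeR's quasi-likelihood test, with p-values adjusted by Benjamini-Hochberg over 14278 genes. The median absolute log2 difference between the 2 replicates was 0.108 in pqm-1 and 0.142 in N2. The defining intestinal genes were present in every library. In the intestine marker list 0 of 8 genes had an unadjusted p under 0.05, against 9.67% of all genes. The median of their log2 fold changes was 0.006.

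The pqm-1 transcript itself was measured at 12.55 and 9.92 CPM in the pqm-1 libraries, against 26.1 and 24.1 CPM in the N2 libraries. Both mutant values lay below both N2 values, and transcript was still counted in the mutant. The log2 fold change was -1.16 (SE 0.185, unadjusted p 4.23e-05), and the edgeR adjusted p of 0.0586 missed the threshold of 0.05. After heat the level was 20.3 ± 1.63 CPM in pqm-1 and 32.7 ± 0.448 CPM in N2 (SD, n = 2 each), a log2 fold change of -0.69 (unadjusted p 0.00181). The deposited row is 888 bases long and does not show which exons the reads came from, so the counts are no check of which part of the gene is missing. The neighbouring genes arrd-6 and ptr-13 had log2 fold changes of -0.13 and -0.09, neither at an unadjusted p under 0.05.

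At 20 °C 9 of the 14278 genes were called at an adjusted p under 0.05, or 0.063% of those tested. Of these, 8 were higher in pqm-1 (0.056%) and 1 was lower (0.007%). The 8 include dod-21 and cld-1, which are read below as 1 measurement. At an unadjusted p under 0.05 there were 830 genes higher (5.81%) and 551 lower (3.86%), 9.67% in all. Leaving out N2 replicate 2 brought the called count to 17, and the tool and the filter moved it further (DESeq2 called 102 genes).

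**Figure D1:**
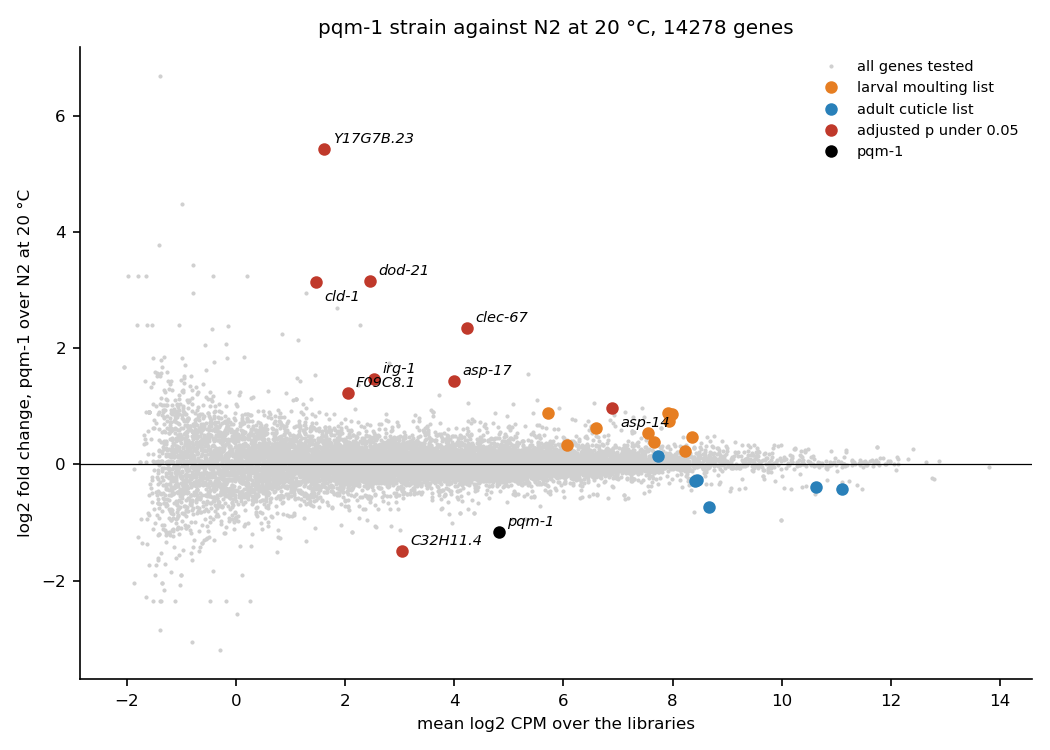
Log2 fold change of pqm-1 over N2 at 20 °C (vertical) against mean log2 CPM (horizontal), 1 point per gene tested. Red points are the 9 genes at an adjusted p under 0.05, 8 above and 1 below 0; orange larval moulting genes all lie above 0, and 5 of the 6 blue adult cuticle genes lie below it.

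The strongest rise among genes with a known tie to DAF-16 was dod-21, a dod gene of chromosome IV whose product carries a CUB-like domain. It stood at 10.7 and 11.8 CPM in the pqm-1 libraries, against 1.50 and 1.04 CPM in the N2 libraries. Levels in the mutant were thus far outside the N2 values, with a log2 fold change of 3.16 (SE 0.196, edgeR adjusted p 1.28e-05). After heat dod-21 was at 12.4 and 13.4 CPM in pqm-1, against 0.960 and 1.17 CPM in N2, a log2 fold change of 3.58. The unstressed daf-16 libraries held 3.498 and 3.23 CPM, above N2 and below pqm-1. The adjacent gene cld-1 was also called, with a log2 fold change of 3.14, but in each of the 12 libraries it held between 48.4% and 52.2% as many counts as dod-21, so it is not read here as a separate measurement.

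Most other genes of the stretch around dod-21 did not follow it. The next dod gene, dod-24, was at 42.9 and 49.9 CPM in pqm-1, against 52.1 and 59.3 CPM in N2 (log2 fold change -0.27, unadjusted p 0.0265). srlf-4, srlf-5 and srlf-6 had log2 fold changes of 0.11, 0.24 and 0.18, with replicate values of pqm-1 and N2 overlapping for the first 2. Counts of srlf-6 were identical to those of C32H11.11, on the other side of dod-21, so these are 1 measurement. For srlf-5 and srlf-6 counts were not whole in 9 of the 12 libraries, so some reads were divided with other rows. Further along, dod-22 was at 16.44 and 15.8 CPM in pqm-1, against 7.98 and 10.6 CPM in N2, a log2 fold change of 0.79 (unadjusted p 0.000212) that was 0.91 after heat. F55G11.2 lay higher by 0.62, while mbug-1 lay lower, at 26.8 and 20.1 CPM in pqm-1 and 43.9 and 46.4 CPM in N2 (log2 fold change -0.95, unadjusted p 0.0043). dod-17 showed 36.3 and 41.4 CPM in pqm-1 and 34.3 and 37.5 CPM in N2, which overlap. The stretch thus held genes that were higher, lower and little different in the mutant within a few positions of each other.

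The only gene called lower at 20 °C, C32H11.4, sits 5 coding genes from dod-21. It was measured at 4.83 and 6.83 CPM in pqm-1 and at 12.56 and 20.0 CPM in N2. The groups did not overlap, although the N2 replicates themselves were far apart (log2 fold change -1.49, SE 0.207, edgeR adjusted p 0.018). After heat the gene was low in both strains, at 1.71 and 1.87 CPM in pqm-1 against 1.92 and 1.87 CPM in N2, and the log2 fold change was -0.08. The interaction of genotype and heat had an unadjusted p of 0.00264 and an adjusted p of 0.572. The 20 °C call was lost without N2 replicate 3 (log2 fold change -1.105, edgeR adjusted p 0.133) and without either pqm-1 replicate (edgeR adjusted p 0.251 and 0.0519).

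C-type lectins are secreted sugar-binding proteins, many of them induced by bacteria. clec-67 was the lectin with the strongest rise, at 62.9 and 37.1 CPM in pqm-1, against 9.22 and 10.4 CPM in N2. Even the lower mutant replicate was several times the N2 values (log2 fold change 2.35, SE 0.198, edgeR adjusted p 0.000199), and the log2 fold change after heat was 1.74. In unstressed daf-16 worms clec-67 was at 14.9 and 13.2 CPM, above N2 and below pqm-1. Its counts were not whole in 7 of the 12 libraries, so some reads were divided with another row. Of its neighbours, clec-70 had a log2 fold change of 0.08 and clec-71 of -1.28 at about 1 CPM or less. Over the clec family, 11 of 129 tested genes were higher (8.53%) and 13 lower (10.08%) at an unadjusted p under 0.05, against 5.81% and 3.86% of all genes. Those on the low side included clec-52, at 11.0 and 12.4 CPM in pqm-1 and 20.0 and 27.2 CPM in N2 (log2 fold change -1.01, edgeR adjusted p 0.0586), and clec-5 with a log2 fold change of -0.36. The unstressed daf-16 libraries held clec-52 at 15.4 and 11.8 CPM, also below both N2 values.

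Aspartyl proteases of the gut lumen and lysosomes showed differences of both signs. asp-17 rose to 17.9 and 16.7 CPM in pqm-1, against 6.08 and 6.63 CPM in N2 (log2 fold change 1.44, SE 0.129, edgeR adjusted p 0.000315). asp-14 was more abundant and rose less, to 199.4 and 204.3 CPM in pqm-1, against 89.2 and 116.7 CPM in N2 (log2 fold change 0.97, SE 0.109, edgeR adjusted p 0.00311). Their log2 fold changes after heat were 1.38 and 1.05. In unstressed daf-16 worms asp-17 was at 9.55 and 8.45 CPM and asp-14 at 133.3 and 125.4 CPM. Both genes were thus above N2 and below pqm-1 there. asp-12 had the opposite sign, with 19.6 and 29.6 CPM in pqm-1 and 48.8 and 45.9 CPM in N2 (log2 fold change -0.94, unadjusted p 0.00142). asp-1, the most abundant of the family named here, showed a log2 fold change of 0.06. The asp-14 call was narrowly lost without pqm-1 replicate 3 (edgeR adjusted p 0.0519).

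irg-1, a gene that worms induce when Pseudomonas blocks translation, rose to 8.76 and 7.90 CPM in pqm-1, against 2.99 and 3.00 CPM in N2 (log2 fold change 1.47, SE 0.201, edgeR adjusted p 0.0167). The unstressed daf-16 libraries held irg-1 at 6.38 and 5.79 CPM, above N2 and below pqm-1, so the rise was not confined to the pqm-1 strain. After heat pqm-1 and N2 lay closer, with 5.68 and 6.16 CPM in pqm-1 against 5.63 and 3.48 CPM in N2. The difference between the 20 °C and heated effects had an unadjusted p of 0.00235 and was not called. F09C8.1 rose to 7.34 and 7.30 CPM in pqm-1, against 3.09 and 3.17 CPM in N2 (log2 fold change 1.22, SE 0.157, edgeR adjusted p 0.01), with a log2 fold change of 1.02 after heat. Unstressed daf-16 worms held F09C8.1 at 4.21 and 3.19 CPM, the second value close to N2. Both calls were lost when any 1 of the 4 libraries was left out, at edgeR adjusted p-values of 0.0746 to 0.172 for irg-1 and 0.0617 to 0.137 for F09C8.1, with log2 fold changes of 1.40 to 1.55 and 1.21 to 1.24.

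The largest called change was in Y17G7B.23, a coding gene of chromosome II that was nearly silent in N2: it rose to 8.76 and 7.25 CPM in pqm-1 (185 and 155 counts), against 0.0997 and 0.2504 CPM in N2 (2 and 6 counts), a log2 fold change of 5.42 (SE 0.336, edgeR adjusted p 1.28e-05). After heat it was at 8.88 and 9.61 CPM in pqm-1 against 0.292 and 0.263 CPM in N2, and the daf-16 libraries were as low as N2. Its locus lies 178 coding genes from pqm-1 on the same chromosome and overlaps mcm-2, a replication helicase gene whose log2 fold change was -0.10; reads of overlapping genes may be shared. The other neighbours ash-2, Y17G7B.3, dhps-1, glb-29 and Y17G7B.12 had log2 fold changes between -0.08 and 0.03. Among coding genes more than 100 and up to 200 positions from pqm-1, 17 of 166 were higher at an unadjusted p under 0.05 (10.24%), against 7 of 166 (4.217%) among the nearest 100 and 96 of 1787 (5.372%) beyond 400 positions.

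**Figure D2:**
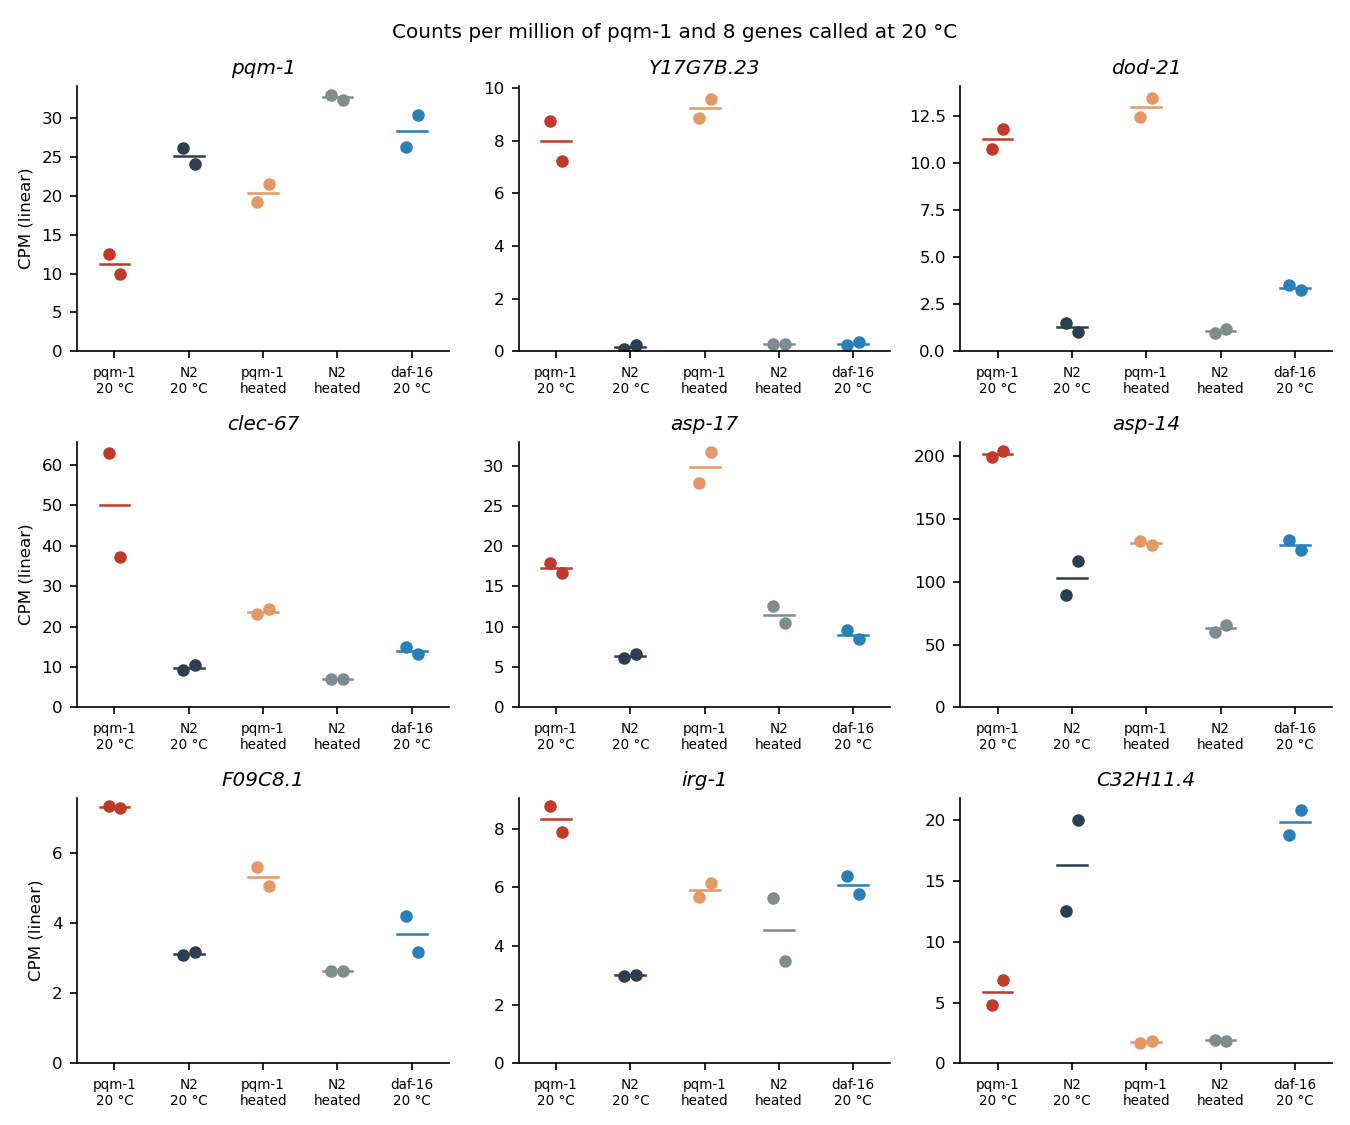
CPM on linear axes (from 0) in each library for pqm-1 and 8 of the 9 called genes, with cld-1 left out because its counts track dod-21; points are the 2 libraries of a group and bars their means. dod-21, clec-67, asp-17, asp-14, F09C8.1 and Y17G7B.23 are higher in pqm-1 at 20 °C and after heat, while C32H11.4 is lower in pqm-1 at 20 °C and low in both strains after heat.

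Just outside the threshold, at adjusted p-values of 0.0586 to 0.0857, lay pqm-1, clec-52, nspc-4, C49G7.12, Y34F4.3 and let-4. nspc-4, of a nematode-specific peptide family, was at 28.1 and 28.9 CPM in pqm-1 and 39.3 and 42.8 CPM in N2 (log2 fold change -0.53); its counts were divided with other rows in 11 libraries. Of the 18 nspc genes tested, 5 were higher and 1 lower at an unadjusted p under 0.05, against 5.81% and 3.86% of all genes. After heat 15 were higher and 1 lower, against 3.44% and 3.02% of all genes. The nspc genes at that level at 20 °C had counts divided with other rows in 11 or 12 libraries. They may therefore not be separate measurements. C49G7.12 was at 3.93 and 3.37 CPM in pqm-1, against 1.30 and 1.21 CPM in N2 (log2 fold change 1.54). After heat its log2 fold change was 0.90 (edgeR unadjusted p 0.00227). The remaining genes with small p-values on the low side were mostly modest. They included citk-1, a citron-kinase relative, at 13.6 and 15.0 CPM in pqm-1 against 23.98 and 27.8 CPM in N2 (log2 fold change -0.86), the transthyretin-related ttr-42 (-0.77), the acyl-CoA-binding acbp-8 (-0.54) and osgn-1 (-0.46). The unstressed daf-16 libraries held citk-1 at 14.3 and 13.4 CPM, also below both N2 values. W09B7.2 and F07B7.2 had identical counts in every library and the same log2 fold change of -0.84, so they are 1 measurement.

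A second set of genes showed modest differences at 20 °C: components of the apical extracellular matrix and the moulting machinery. C. elegans builds a new collagen cuticle at each larval moult, preceded by a temporary matrix of zona-pellucida and leucine-rich repeat proteins, and genes for it cycle during larval life. In the list of 10 larval moulting genes all 10 were higher in pqm-1, with no overlap between the groups; of all genes tested, 43.1% had groups that did not overlap, 21.8% with pqm-1 higher. None was called; 9 of the 10 had an unadjusted p under 0.05, against 5.81% of all genes. The median over the list was 0.59 on the log2 scale, against 0.001 over all genes tested.

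The matrix protein gene noah-1 was at 252.6 and 300.0 CPM in pqm-1, against 178.9 and 119.1 CPM in N2 (log2 fold change 0.89, SE 0.18, unadjusted p 0.000333). Its partner noah-2 was at 257.9 and 283.6 CPM in pqm-1, against 178.8 and 144.4 CPM in N2 (log2 fold change 0.74, SE 0.14). mlt-11, which encodes a Kunitz-type protease inhibitor, was at 300.4 and 349.6 CPM in pqm-1 and 229.3 and 126.8 CPM in N2, so the lower N2 library carried much of its log2 fold change of 0.87. The furrow collagen gene dpy-7 had a log2 fold change of 0.63 and the hedgehog-related qua-1 of 0.54. bli-1, mlt-8, the astacin protease gene nas-37 and mlt-10 followed with 0.48, 0.38, 0.33 and 0.23, and fbn-1, which encodes a fibrillin-like protein, had 0.88 at an unadjusted p of 0.087.

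The named genes on the high side with the smallest p-values short of the threshold included 6 others outside that list. let-4, an extracellular leucine-rich repeat gene of the temporary matrix, was at 31.4 and 30.8 CPM in pqm-1, against 18.8 and 16.23 CPM in N2 (log2 fold change 0.83, edgeR adjusted p 0.0857). lpr-6, a lipocalin-related gene, was at 75.9 and 80.3 CPM in pqm-1, against 50.3 and 42.1 CPM in N2, a log2 fold change of 0.76. mlt-9, H03E18.1, F23H12.5 and the immunoglobulin-domain gene igcm-1, all of which fell among the 15 named genes on the high side, had log2 fold changes of 0.48, 0.68, 0.69 and 0.59. let-4 overlaps bltp-3B and F23H12.5 overlaps fipr-1 and gcy-13, whose reads may be shared. After heat these 6 genes had log2 fold changes between -0.05 and 0.17, none at an unadjusted p under 0.05. For all 6, both unstressed daf-16 libraries also lay above both N2 20 °C libraries. Examples are let-4 at 40.3 and 32.7 CPM and lpr-6 at 98.1 and 79.6 CPM in daf-16. Higher values than in N2 were thus not confined to the pqm-1 strain.

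The dpy and ptr families were taken by gene name. Of 23 dpy genes tested, which include furrow collagens and collagen-modifying enzymes, 11 were higher (47.83%) and 0 lower at an unadjusted p under 0.05, against 5.81% and 3.86% of all genes. dpy-6, which encodes a mucin-like protein, was at 46.2 and 34.3 CPM in pqm-1 and 24.8 and 12.8 CPM in N2 (log2 fold change 1.11); the furrow collagen genes dpy-10, dpy-9, dpy-8 and dpy-2 had 0.68, 0.59, 0.59 and 0.49, and the prolyl hydroxylase subunit dpy-18 had 0.31. Of 21 patched-related ptr genes, 10 were higher (47.62%) and 0 lower at the same level, and 0 were called. Among the higher ones was ptr-4 at 80.2 and 82.5 CPM in pqm-1 and 56.4 and 58.9 CPM in N2 (log2 fold change 0.50). These families were singled out after their values had been seen. In the heated pair 1 dpy gene was higher and 0 lower at an unadjusted p under 0.05 (median log2 fold change -0.025). For ptr 1 was higher and 1 lower (median -0.038), against 3.44% and 3.02% of all genes. Unstressed daf-16 worms held dpy-10 at 126.7 and 115.4 CPM and ptr-4 at 101.3 and 83.53 CPM, above all N2 and pqm-1 values at 20 °C. Of the genes named here, only dpy-6 had a daf-16 library that was not.

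Of 123 col genes tested, which encode cuticle collagens, 16 were higher (13.01%) and 22 lower (17.89%) at an unadjusted p under 0.05, against 5.81% and 3.86% of all genes, and 0 were called. col-176 was on the high side, at 144.3 and 105.5 CPM in pqm-1, against 75.6 and 51.7 CPM in N2 (log2 fold change 0.97). The list of 6 adult cuticle genes was, like the others, chosen with earlier results of these data known. Its median log2 fold change was -0.34. In it 3 genes were lower at that level and 0 higher, against 3.86% and 5.81% of all genes. Of these, col-19, the usual marker of the adult cuticle, was at 1597 and 1616 CPM in pqm-1, against 2126 and 2067 CPM in N2 (log2 fold change -0.38, unadjusted p 0.0108). The other two were col-140 with -0.43 and col-143 with -0.72, while col-120 of the same list had 0.15. Outside the list, and picked with their values in view, col-119 had -0.50 and col-101 was at 361.5 and 337.3 CPM in pqm-1 and 632.2 and 595.2 CPM in N2 (log2 fold change -0.81). Counts were not whole in all 12 libraries for col-101, col-119 and col-143. They were not whole in 9 for col-176 and in 7 for col-19 and col-140. Some collagen reads were thus divided with other rows, so these genes may not be separate measurements.

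Values of other stage markers are given beside these genes. All 11 tested oocyte and eggshell genes had negative log2 fold changes (median -0.25); 2 of the 11 had an unadjusted p under 0.05, against 3.86% of all genes in that direction, and none was called. These were the eggshell genes perm-2 and perm-4, with -0.43 and -0.40 at unadjusted p-values of 0.00791 and 0.00417. The summed level of the moulting list was 2055 and 2295 CPM in pqm-1 at 20 °C, against 1567 and 1362 CPM in N2. The adult cuticle list summed to 5128 and 5266 CPM in pqm-1, against 6866 and 6771 CPM in N2. For the oocyte and eggshell list the sums were 3356 and 3302 CPM in pqm-1, against 4398 and 3763 CPM in N2. Among the 6 groups the N2 20 °C libraries were the lowest in the moulting sum and the highest in the other 2; the unstressed daf-16 libraries had moulting sums of 2834 and 2207 CPM. The part of these stage markers in the matrix results was not tested, and in whole worms fewer cells of a type and less RNA per cell cannot be told apart.

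**Figure D3:**
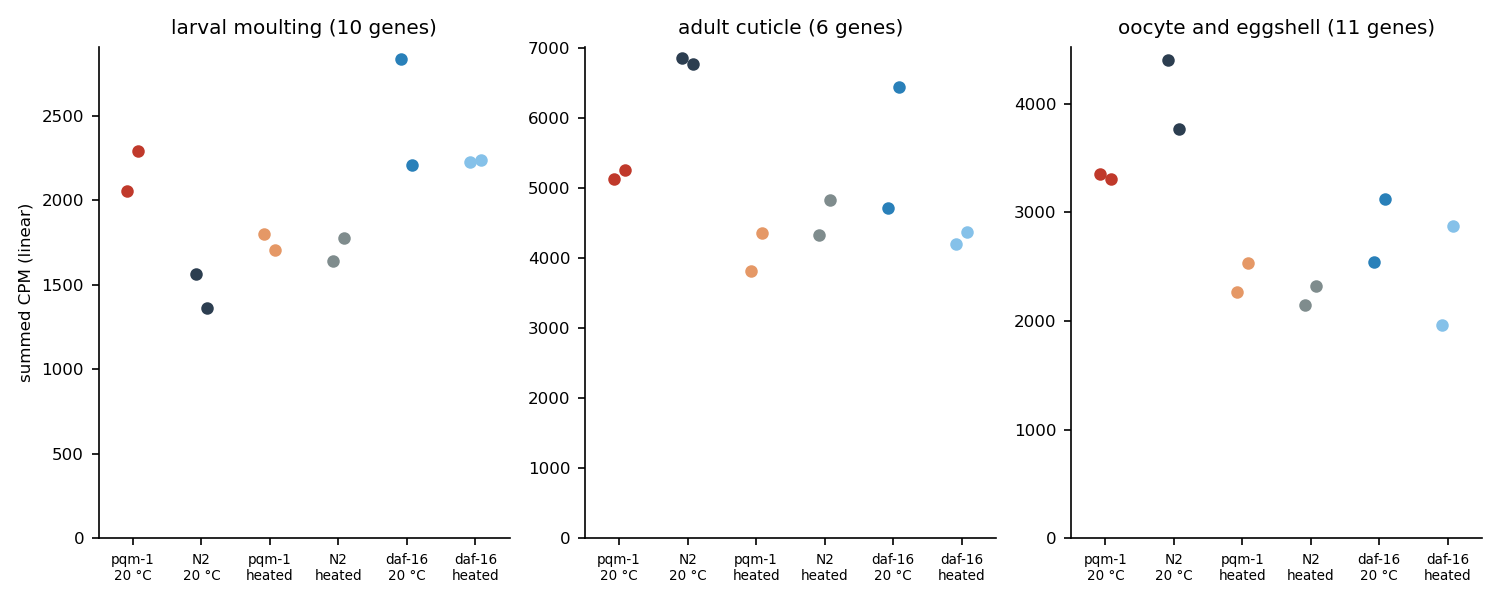
Summed CPM on linear axes (from 0) of the larval moulting, adult cuticle, and oocyte and eggshell lists, 1 point per library and 6 groups. At 20 °C the pqm-1 libraries lie above N2 for moulting genes (2055 and 2295 against 1567 and 1362 CPM) and below N2 for the other 2 lists; after heat pqm-1 and N2 overlap in all 3.

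The class II list of dod genes, which fall when insulin signalling is low, held 7 tested genes: 1 was called higher (0.056% of all genes were), 2 were higher and 1 lower at an unadjusted p under 0.05 (5.81% and 3.86% of all genes), and the median log2 fold change was 0.11. Its summed level did not separate the strains (470.9 and 450.0 CPM in pqm-1 against 460.5 and 515.7 CPM in N2). In the class I list 2 of 13 genes were higher and 0 lower at an unadjusted p under 0.05, against 5.81% and 3.86% of all genes, with a median of 0.29. mdl-1, a MAD-like factor, was at 46.5 and 41.5 CPM in pqm-1 and 35.7 and 33.8 CPM in N2 (log2 fold change 0.34), and the low-count dod-3 had 1.85. The superoxide dismutase gene sod-3 had a log2 fold change of 0.02. daf-16 itself had a log2 fold change of 0.14, and 0 of 12 insulin signalling genes reached an unadjusted p under 0.05, against 9.67% of all genes.

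Among 34 innate immune genes, 2 were called higher (clec-67 and irg-1), against 0.056% of all genes. At an unadjusted p under 0.05 there were 5 higher and 3 lower, against 5.81% and 3.86% of all genes, with a median of 0.12. irg-4, another CUB-like gene, was at 19.7 and 19.2 CPM in pqm-1, against 10.2 and 13.5 CPM in N2 (log2 fold change 0.71). The lysozyme gene lys-2 was at 227.6 and 207.6 CPM in pqm-1, against 150.3 and 180.6 CPM in N2 (log2 fold change 0.40). lys-10 went the other way, with a log2 fold change of -2.16 at under 1 CPM in all 4 libraries.

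In the lipid list 4 of 37 genes were higher and 2 lower at an unadjusted p under 0.05, against 5.81% and 3.86% of all genes, with a median of 0.05; the count on the low side is near that background, and none was called. The higher ones were the carnitine palmitoyltransferase genes cpt-6 and cpt-4 (0.50 and 0.41), the diacylglycerol acyltransferase gene dgat-2 (0.37) and the lysosomal lipase gene lipl-2 (1.62, at 0.616 and 1.78 CPM in pqm-1 and 0.299 and 0.459 CPM in N2). The lower ones were the desaturase gene fat-7 (-0.24) and the lipid-binding lbp-2 (-0.20). The 5 tested genes of the yolk list had log2 fold changes of -0.36 to -0.12, none at an unadjusted p under 0.05, against 9.67% of all genes.

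Of 31 oxidative stress, detoxification and metal genes, 0 reached an unadjusted p under 0.05 without heat, against 9.67% of all genes. Of 22 heat shock and chaperone genes only the small heat shock gene hsp-17 did, with a log2 fold change of 0.26. That count is near the 5.81% of all genes that were higher. hsp-16.2 was under 1 CPM in all 4 libraries. In the hypoxia list 3 of 8 genes were higher at that level, against 5.81% of all genes, and none was called; these were the prolyl 4-hydroxylase subunit gene phy-2 (0.33), which acts on collagen, the oxygen sensor gene egl-9 (0.30) and hif-1 (0.17). Among 17 transcription factors mab-3 and hif-1 were higher and only pqm-1 was lower at that level, against 5.81% and 3.86% of all genes. The log2 fold change of mab-3 was 0.90, at 3.69 and 4.40 CPM in pqm-1 and 2.39 and 1.96 CPM in N2.

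For other tissues, the germline list had 0 of 10 genes at an unadjusted p under 0.05 and the sperm list 0 of 13; neuron and coelomocyte lists had 0 of 9 and 0 of 3, and the early embryo list 0 of 3. In muscle myo-3 had a log2 fold change of 0.32 and in pharynx phat-3 of 0.29. Each was the 1 gene of 7 in its list at that level, against 5.81% of all genes higher. Of all genes tested, 9.67% reached that level in either direction.

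**Figure D4:**
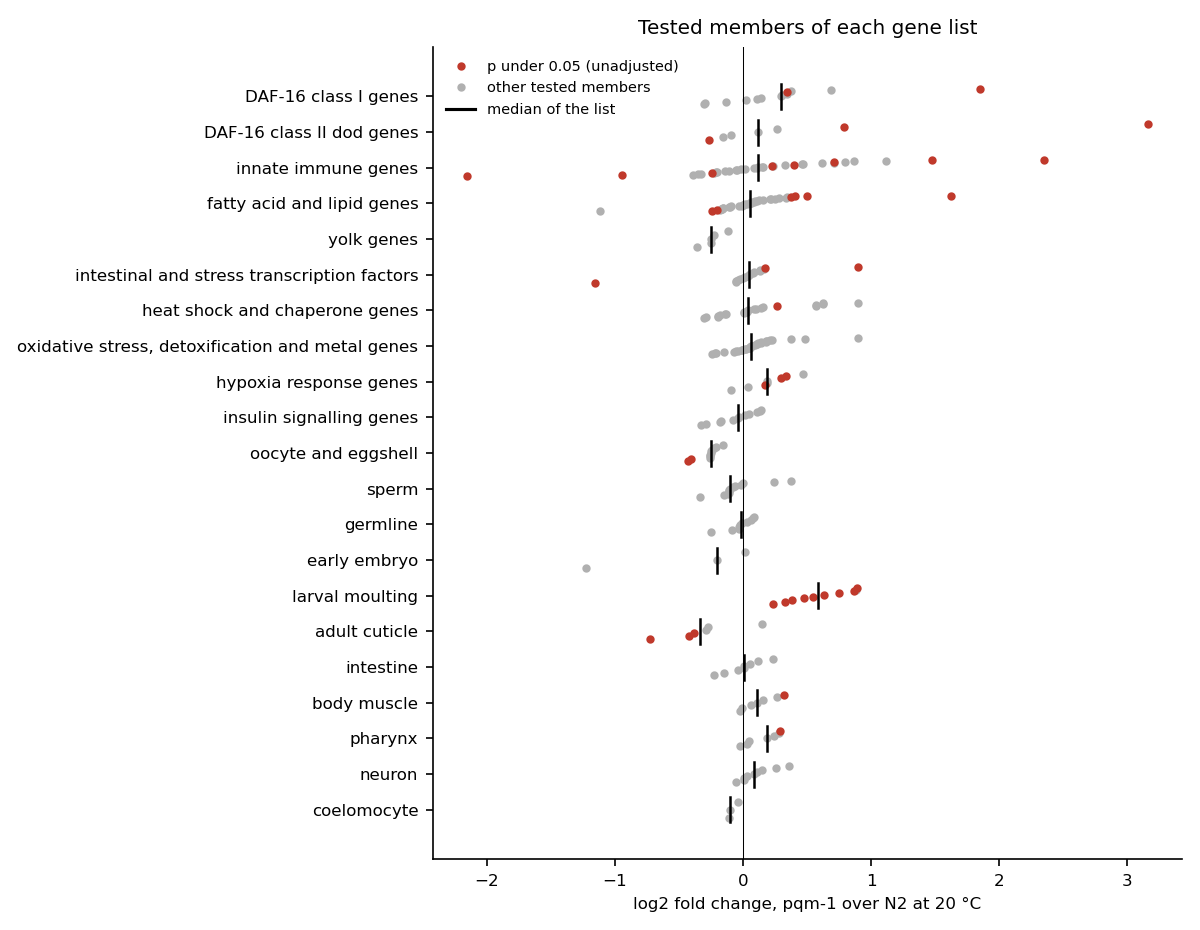
Log2 fold change of pqm-1 over N2 at 20 °C for every tested member of each list (points) with the list's median (vertical bar); red marks an unadjusted p under 0.05. The larval moulting list lies wholly right of 0 (median 0.59), the oocyte and eggshell list wholly left of it (median -0.25), and most other medians are near 0.

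The heated pair, which shares no library with the 20 °C pair, gives the genotype contrast a second time under another condition. Both contrasts come from 1 fit with a spread estimate shared for each gene, so their p-values are not independent. Counts of genes with small p-values in both are descriptions. After heat 40 genes were called (0.28%), 32 higher (0.224%) and 8 lower, and 922 had an unadjusted p under 0.05 (6.46%); without 1 heated library the count was 14 to 26. Of the 9 genes called at 20 °C, all kept their sign and 7 were called again, the exceptions being irg-1 and C32H11.4. The 7 include both dod-21 and cld-1, which are not separate measurements. Of the 830 genes higher at 20 °C at an unadjusted p under 0.05, 110 (13.25%) were higher at that level after heat, against 3.44% of all genes, and 22 were lower. Of the 551 lower ones, 47 (8.53%) were again lower, against 3.02% of all genes, and 9 higher. Over all genes the log2 fold changes of the 2 contrasts had a Spearman correlation of -0.008 and a Pearson correlation of 0.169 across genes, which are not independent replicates.

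Beside the called genes, several had small p-values in both conditions. The CUB-like gene dod-22, irg-4 and C17H12.8 were higher at 20 °C by 0.79, 0.71 and 0.71, and after heat by 0.91, 0.74 and 0.93. F42A10.7 was at 60.1 and 56.4 CPM in pqm-1, against 36.4 and 38.7 CPM in N2 at 20 °C, and its log2 fold change was 0.63 without heat and 1.31 after it. The saposin-like spp-2 had 0.42 and 0.69, and the ion channel gene acd-1 had 1.36 and 1.42. On the low side clec-52 had -1.01 and -0.77, and the phosphatase-family gene pho-8 had -1.07 and -0.90. Y73B6BL.12 was at 2.18 and 1.26 CPM in pqm-1 and 3.94 and 3.46 CPM in N2 at 20 °C. After heat it had -1.28 and was called (edgeR adjusted p 0.0495). Also called after heat were F42A10.7, spp-2, dod-22 and C17H12.8 (edgeR adjusted p 0.00176, 0.00411, 0.0163 and 0.0169). irg-4, acd-1, clec-52 and pho-8 were not called after heat.

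In the heated pair the moulting list had 0 of 10 genes at an unadjusted p under 0.05, against 6.46% of all genes. Its median was -0.005 on the log2 scale. Heated sums were 1799 and 1706 CPM in pqm-1 and 1639 and 1775 CPM in N2. The difference between the heated and the 20 °C effect reached an unadjusted p under 0.05 in 5 of the 10 genes, all with the heated effect lower, against 4.22% of all genes in that direction (3.56% in the other, 7.79% in all), with noah-1 at 0.00124, noah-2 at 0.00241 and dpy-7 at 0.00326. In edgeR with low-count genes filtered, no gene passed the adjusted threshold for that difference and 1112 had an unadjusted p under 0.05; DESeq2 called 8, and edgeR without the filter called 284.

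**Figure D5:**
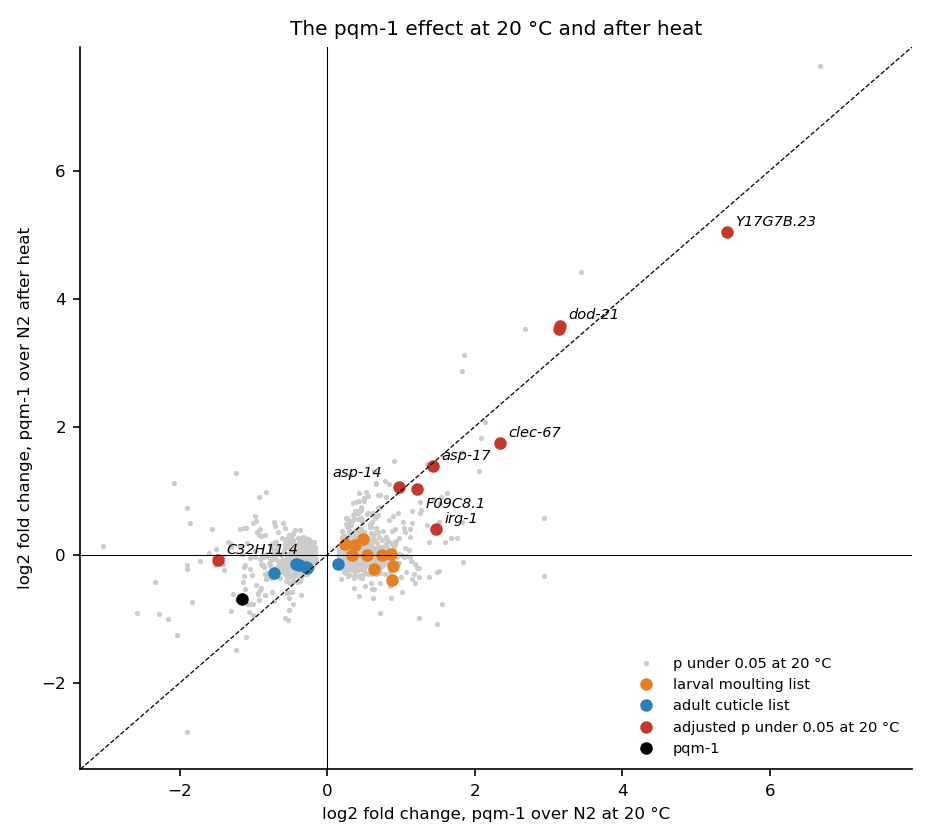
Log2 fold change of pqm-1 over N2 at 20 °C (horizontal) and after heat (vertical); grey points are genes with an unadjusted p under 0.05 at 20 °C, and the dashed line marks equal effects. Y17G7B.23, dod-21, clec-67, asp-17 and asp-14 lie near the line, whereas the orange moulting genes and C32H11.4 lie near 0 on the heated axis.

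The higher genes were unevenly spread over the genome. On the X chromosome 210 of 1896 tested genes (11.08%) were higher at an unadjusted p under 0.05 and 71 were lower (3.74%), against 5.06% higher and 3.88% lower on the autosomes. The median log2 fold change was 0.07 for X and -0.007 for autosomes. After heat 4.22% of X genes and 3.37% of autosomal genes were higher. Of the 15 named genes on the high side, asp-14, F09C8.1, let-4, igcm-1, mlt-9, lpr-6 and H03E18.1 are X-linked.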

How the data were processed

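The authors deposited 1 table of estimated counts per transcript for the 18 samples; the aligner, counter, build and annotation are not given in the sources used here, so no coordinates are given. Per the labels' protocols, total RNA was extracted with TriZol and a Direct-Zol kit and all samples had a high RNA integrity number. Of the non-zero deposited values 13.3% were not whole, as when a read is divided among several rows; estimated counts were rounded to whole numbers before testing. The first value column carries the name of a daf-16 sample but holds transcript lengths: it equals the coding length in 11837 of 12369 genes with 1 coding transcript (95.7%). The header can therefore be read as displaced by 1 column, and the 12 libraries labelled replicate 2 or 3 keep their group under either reading; these were used.

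Of 50755 rows, 45910 matched 39798 genes and 4845 matched none; the unmatched rows held 23.4% to 24.3% of row totals and stayed out. Each gene kept its transcript with the highest mean. Gene totals were 18650462 to 33399558 over the 12 libraries, which limits genes at a few counts; replicate libraries differed by more than counting noise in all 6 groups. R 4.3.3, edgeR 4.0.16 (TMM, filterByExpr, quasi-likelihood F-test, group means, 6 residual degrees of freedom), limma 3.58.1 and DESeq2 1.42.0 were used, with Benjamini-Hochberg adjustment and calls at an adjusted p under 0.05; the scripts were tested on simulated counts. Standard errors are the log2 fold change divided by the root of F. An unadjusted p under 0.05 is used as a description only.

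The members, gene lists and tests were chosen with earlier results of these data known, and list counts are descriptions, to be read against the shares over all genes tested. Named genes are pqm-1, every called gene, then the smallest p-values in each direction with non-overlapping replicates and a mean log2 CPM of at least 1, up to 15 per direction, with list members and genomic neighbours. Others named (families, genes differing at both temperatures, nhx-6) were picked with their values in view. The settings varied were the tool, scaling, filter, set of libraries and transcript choice, and each library was left out in turn.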

Additional observations from a re-analysis of the deposited data

Results flagged for a closer look

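The libraries labelled replicate 1 were not used in any comparison, and 4 values in them stand out. Replicate 1 labelled pqm-1 at 20 °C had the heat shock gene hsp-16.2 at 320.252 CPM, and replicate 1 labelled N2 at 20 °C had it at 205.917 CPM. In the unstressed pqm-1 and N2 libraries of replicates 2 and 3 the gene was under 1 CPM. The first of these libraries also had pqm-1 at 34.08 CPM and dod-21 at 1.475 CPM. For replicate 1 labelled pqm-1 at 35 °C, dod-21 was at 15.736 CPM and Y17G7B.23 at 9.069 CPM, above every N2 library, and hsp-16.2 was at 0.039 CPM. These CPM are scaled over all 17 count columns. The other replicate 1 libraries with counts, labelled N2 and daf-16 at 35 °C, had hsp-16.2 at 0.394 and 0.277 CPM. The hsp-16.2 values thus go against the temperature labels of all 5 replicate 1 libraries with counts, and the dod-21 and pqm-1 values of the library labelled pqm-1 at 20 °C lie with the N2 libraries; no library was relabelled from them.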

How the results depend on the processing

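The 9 calls at 20 °C became 102 with DESeq2, 550 with no filter on low counts, 26 with only the groups compared and 0 with all count columns used by header name; RLE factors, library size only, a mean count of at least 10, the longest transcript and unmatched rows kept gave 9 or 10. Without the daf-16 libraries, a setting chosen after seeing the data, there were 56. Leaving out each of the 4 libraries gave 6 to 17. After heat the 40 calls became 88 with DESeq2, 287 with no filter and 0 by header names, and 14 to 26 with a library left out. The interaction, with 0 calls in edgeR after the filter on low counts, had 8 with DESeq2, 284 in edgeR with no filter and 0 with any library left out. Same-numbered pqm-1 and N2 libraries at 20 °C did not deviate together (correlation -0.015), so the numbers were not taken as pairs; with a replicate block there were 16 calls at 20 °C, 47 after heat and 0 for the interaction. F53A9.1 had a log2 fold change of 0.443 by header names, against -0.51. The count of 9 larval moulting genes was 7 to 10 in every setting tried other than header names, where it was 0. For header names, where the replicate 1 libraries enter, and for the other moves the cause was not tested. pqm-1 passed the adjusted threshold with DESeq2, library size only, no filter, only the groups compared, the replicate block and without the daf-16 libraries. With 2 libraries a group, replicates that differed by more than counting noise, and genes under about 1 CPM resting on few counts, small differences may have been missed.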

Other observations

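The sodium/proton exchanger gene nhx-6 fell outside the naming rule because of its low level and was picked after its values were seen. It had 18 and 6 counts in the pqm-1 20 °C libraries, against 0 and 0 in N2. Against a floor of 3 counts over the N2 group, the pooled counts gave 8.26-fold. That value ignores the spread between replicates and is not a lower bound. The edgeR test gave an unadjusted p of 0.00338 and an adjusted p of 0.233. The gene passed the filter on low counts through libraries where it was high, so these p-values are no support for a difference. After heat nhx-6 had 31 and 17 counts in pqm-1 against 0 and 0 in N2, or 20.99-fold by the same floor and with the same limit. The unstressed daf-16 libraries held 6 and 0 counts, so the gene was not confined to the pqm-1 strain.

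For further families, taken by name with their values in view, the background at an unadjusted p under 0.05 was 5.81% of all genes higher and 3.86% lower. Of 52 transthyretin-related ttr genes tested, 2 were higher and 7 lower (13.46%) at that level; of 21 F-box fbxc genes, 0 were higher and 5 lower (23.81%); and of 28 bath genes, which encode BTB and MATH domain proteins, 1 was higher and 5 were lower (17.86%). fbxc-32 had a log2 fold change of -0.62 and bath-19 of -0.61, while bath-46 had 0.95. None was called at 20 °C, and after heat the fbxc family had 4 genes higher and 0 lower at that level, against 3.44% and 3.02% of all genes.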
